A study of Mus musculus with 26 samples.

Results

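The Notch pathway and the transcription factors of secretory fate were followed through 10 genes: the receptors Notch1 and Notch2, the ligands Dll1, Dll4 and Jag1, the target Hes1, and the fate regulators Atoh1, Spdef, Gfi1 and Neurog3. They were taken by gene name from the mouse tables, which hold 40481 genes, and by the same name in upper case from the human table, which holds 55093 genes. All 10 were present in each table. RNA was sequenced in 26 samples of 3 kinds from a study of the centrosomal gene Fgfr1op in intestinal stem cells. Spheroids, epithelial cultures of mouse small intestine grown in Matrigel with medium conditioned by cells that secrete Wnt, R-spondin and Noggin, were Fgfr1op knockout (KO) or wild type (WT), with 4 mice in each group, on day 3 after Z-4-hydroxytamoxifen at 250 nM. Crypt preparations, freed from mouse small intestine with EDTA, were Fgfr1op KO or WT, with 3 mice per genotype on each of days 6 and 9 after tamoxifen. Caco-2, a human colorectal adenocarcinoma line, carried a lentiviral hairpin that doxycycline switches on, either against Fgfr1op (shFgfr1op) or with no target (scramble), with 3 samples each on day 3 after doxycycline. Both genotypes of mouse sample are labelled by time after the drug, and both Caco-2 groups by time after doxycycline. The sources used here do not give the Cre driver of the KO, the exons it deletes or the age of the mice, and each Caco-2 group rests on 1 hairpin.

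Notch signalling passes between touching cells. A Delta-like or Jagged ligand on one cell binds a Notch receptor on its neighbour, the receptor is cleaved, and its intracellular part enters the nucleus, where with RBPJ and Mastermind proteins it switches on targets such as Hes1. In the intestinal epithelium, HES1 represses Atoh1, and cells that escape Notch signalling and express Atoh1 become secretory cells; Spdef and Gfi1 act after Atoh1 in goblet and Paneth cells, and Neurog3 starts the enteroendocrine line.

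The targeted gene had a lower mean in all 3 comparisons and passed the test in 2 of them. Fgfr1op (chromosome 17, 8165501 to 8196804, mm10) averaged 17.4 ± 1.98 CPM (read counts relative to the scaled library total) in KO spheroids and 23.2 ± 1.12 CPM in WT spheroids (SD, n = 4 each), without overlap but with an edgeR adjusted p of 0.117. It averaged 21.1 ± 5.22 CPM in KO crypts and 32.9 ± 6.27 CPM in WT crypts (SD, n = 6 each; edgeR adjusted p 0.0261), with overlap, since KO 4 at 25.9 CPM lay above WT 1 at 25.2 and WT 3 at 25.6 CPM. FGFR1OP averaged 6.82 ± 0.41 CPM with shFgfr1op and 15.7 ± 0.21 CPM with scramble (SD, n = 3 each; 1.65e-14). The column names of the crypt table give genotype and a running number but no day, so days 6 and 9 were pooled. Crypt KO libraries 4, 5 and 6 stood apart from the other 9 crypt libraries: on the first principal component, with 56.0% of the variance, they lay from -124.3 to -101.7 and the other 9 from -5.16 to 64.4. The labels hold 3 KO crypt samples of day 9, but whether they are these 3 libraries cannot be told from the column names. Crypt results are therefore also given without these 3 libraries. That fit keeps the WT libraries of both days, so time after tamoxifen may differ between its groups. Total counts per library ran from 37281821 in Caco-2 to 103352863 in crypts.

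Few of the 10 genes differed between KO and WT in mouse, and 4 differed in Caco-2. In KO spheroids 0 of 10 passed an edgeR adjusted p of 0.05, where 0.232% of all genes tested did, 0.189% as higher and 0.044% as lower. At an unadjusted edgeR p below 0.05 there were 2, Notch2 and Dll4, where 14.6% of all genes met it, and DESeq2 called 1, Notch2, where it called 3.7% of all genes with an adjusted p. In KO crypts 1 of 10 passed, Spdef, which was higher, against 24.5% of all genes, 14% as higher and 10.5% as lower. It was also the 1 member at an unadjusted p below 0.05 there, against 38.1% of all genes. In shFgfr1op cells 4 of the 8 genes that could be tested passed, against 31.9% of all genes: DLL1 and NOTCH1 were higher, against 15.7% of all genes, and HES1 and DLL4 were lower, against 16.2%. The same 4 met an unadjusted p below 0.05, against 39.8%. Read against these shares, the counts are no result about the 10 genes as a set. The median log2 fold change of the members tested was -0.07 in spheroids, 0.11 in crypts and 0.11 in Caco-2, beside medians over all genes of -0.002, 0.05 and -0.01.

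**Figure D1:**
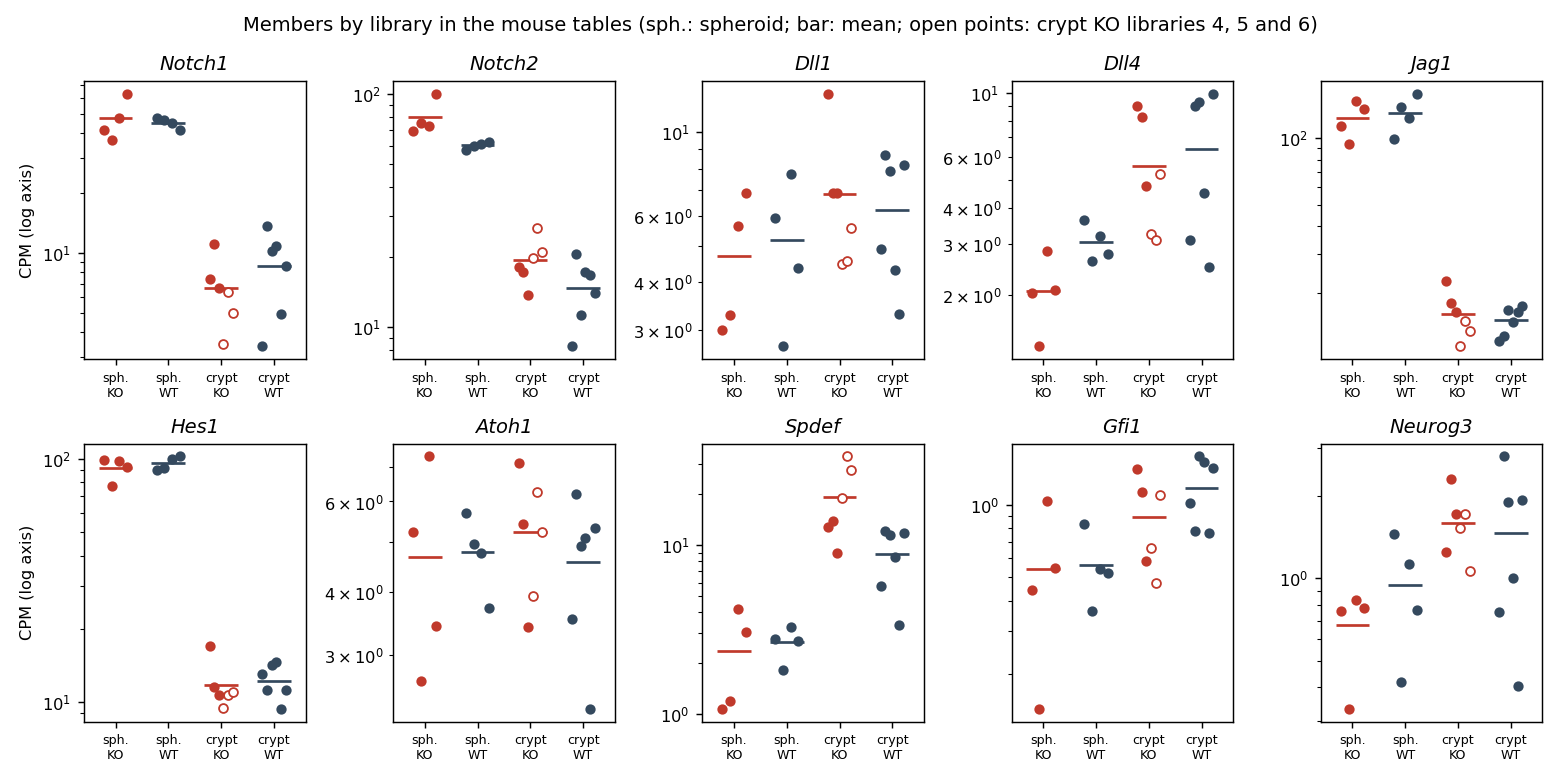
CPM of each of the 10 genes in every mouse library, on log axes with a range of its own in each panel, KO in red and WT in dark blue, with the group mean as a bar and crypt KO libraries 4, 5 and 6 as open points. Spheroid KO libraries lie above all WT libraries for Notch2, and the open points lie above all WT crypts for Spdef.

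Between genes, levels were compared per kilobase of exon, over the union of a gene's exons. In spheroids Hes1 stood highest, at 45.0 ± 4.93 CPM per kb in KO and 47.0 ± 3.08 in WT (SD, n = 4 each), followed by Jag1, from 16.2 to 25.2 in KO and from 17.0 to 27.2 in WT. Notch2 and then Notch1 came next, and in both genotypes these first 3 steps, from Hes1 to Jag1, to Notch2 and to Notch1, were wider than the spread of the libraries. Atoh1 was next, at 2.20 ± 0.98 in KO and 2.25 ± 0.38 CPM per kb in WT. From there down, each gene overlapped the next one in the order Dll1, Spdef, Dll4, Neurog3 and Gfi1, and Gfi1 had 0.170 ± 0.117 in KO and 0.177 ± 0.061 CPM per kb in WT.

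In crypts the order was flatter. Spdef led in KO crypts with 8.40 ± 4.13 CPM per kb, ahead of Hes1 with 5.78 ± 1.33, while in WT crypts Hes1 led with 6.03 ± 1.00 and Spdef followed with 3.83 ± 1.57 (SD, n = 6 each). These 2 genes overlapped in both genotypes. Jag1 and Atoh1 came next in both, and Gfi1 was last, at 0.280 ± 0.116 in KO and 0.370 ± 0.116 CPM per kb in WT. In KO crypts the step from Hes1 to Jag1 was the one step wider than the spread, and in WT crypts all neighbours in the order overlapped. The human levels are not ordered, since no human gene lengths were used here.

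Between the receptors Notch1 and Notch2, Notch2 showed the clearer separation in mouse and NOTCH1 in the human line. Notch2 (chromosome 3, 98013527 to 98150361, mm10) had 69.4, 75.0, 73.4 and 101 CPM in KO spheroids, against 57.9, 59.9, 61.3 and 62.3 CPM in WT spheroids. Every KO value was above every WT value, with KO 4 well above the other 3 KO libraries. Its log2 fold change of 0.40 ± 0.11 (SE) had an edgeR adjusted p of 0.145 and a DESeq2 adjusted p of 0.0371. Groups failed to overlap in 8.56% of all genes tested there. In crypts Notch2 had a median of 18.9 CPM in KO libraries, from 13.7 to 26.8, against a median of 15.4 CPM in WT libraries, from 8.26 to 20.6. The groups overlapped, and the log2 fold change of 0.41 ± 0.22 did not pass (edgeR adjusted p 0.184). In Caco-2, NOTCH2 had 135, 130 and 125 CPM in shFgfr1op, against 128, 132 and 155 CPM in scramble cells, with a log2 fold change of -0.09 ± 0.075 that did not pass. The human genome carries near-identical NOTCH2NL copies, so reads of NOTCH2 may be split among them and its human value is uncertain.

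Notch1 (chromosome 2, 26457903 to 26516663, mm10) had 41.5, 37.1, 47.9 and 63.2 CPM in KO spheroids, against 47.6, 46.6, 45.1 and 41.4 CPM in WT spheroids. The 4 KO values lay on both sides of the WT values, with a log2 fold change of 0.07 ± 0.14. In crypts it had a median of 6.51 CPM in KO libraries, from 3.49 to 11.1, and of 9.43 CPM in WT libraries, from 3.39 to 13.7. That difference did not pass either (-0.37 ± 0.33, edgeR adjusted p 0.435). In Caco-2, NOTCH1 had 39.3, 40.0 and 44.5 CPM in shFgfr1op, against 33.4, 30.5 and 35.6 CPM in scramble cells. All shFgfr1op values lay above all scramble values, where 42.4% of all genes tested had groups without overlap. NOTCH1 rose by 0.32 ± 0.060 on the log2 scale (SE; edgeR adjusted p 4.07e-05).

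The ligands moved in opposite directions in Caco-2 and did not pass in mouse. DLL1, a Delta-like ligand that secretory progenitors present to their neighbours, had 9.71, 10.3 and 12.1 CPM in shFgfr1op, against 7.50, 6.10 and 6.03 CPM in scramble cells. It rose by 0.72 ± 0.11 on the log2 scale (edgeR adjusted p 1.15e-06), the greatest difference in size among the 8 tested members in this line. DLL4, the other Delta-like ligand followed here, had 1.81, 2.01 and 2.01 CPM in shFgfr1op, against 3.03, 3.23 and 3.06 CPM in scramble cells. It fell by 0.68 ± 0.19 on the log2 scale (edgeR adjusted p 0.00411), on 234 counts in shFgfr1op and 416 counts in scramble cells in all. JAG1, the Jagged ligand, stood at 161, 162 and 150 CPM in shFgfr1op, against 157, 156 and 161 CPM in scramble cells. Its log2 fold change was -0.002, with a 95% interval from -0.07 to 0.07.

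In spheroids Dll4 (chromosome 2, 119325784 to 119335962, mm10) had 2.03, 1.33, 2.83 and 2.08 CPM in KO, against 3.62, 2.62, 3.19 and 2.77 CPM in WT. One KO library, KO 3, reached into the WT range, and the log2 fold change of -0.56 ± 0.23 did not pass (edgeR adjusted p 0.304). Dll1 (chromosome 17, 15367354 to 15376872, mm10) had 3.00, 3.28, 5.62 and 6.88 CPM in KO spheroids and 5.92, 2.71, 7.75 and 4.36 CPM in WT spheroids, fully mixed. Jag1 (chromosome 2, 137081456 to 137116644, mm10) had 123 ± 23.3 CPM in KO, against 130 ± 25.1 CPM in WT spheroids (SD, n = 4 each). In crypts Jag1 had 16.2 ± 3.91 CPM in KO, against 15.1 ± 2.18 CPM in WT, Dll1 6.83 ± 3.03 CPM in KO, against 6.21 ± 2.32 CPM in WT, and Dll4 5.59 ± 2.50 CPM in KO, against 6.37 ± 3.37 CPM in WT (SD, n = 6 each). The log2 fold changes of the 3 ligands in crypts were 0.10 ± 0.17, 0.14 ± 0.30 and -0.19 ± 0.38, none of which passed. Without KO libraries 4, 5 and 6 that of Dll4 was 0.20 ± 0.42.

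Hes1, the repressor that Notch switches on, was called in Caco-2 alone among the 3 comparisons. HES1 had 73.4, 80.6 and 80.3 CPM in shFgfr1op, against 94.3, 90.4 and 97.1 CPM in scramble cells. The groups did not overlap, as in 42.4% of all genes tested in this line. HES1 fell by 0.27 ± 0.043 on the log2 scale (edgeR adjusted p 2.06e-06). In the same cells NOTCH1 and DLL1 were higher, as given above. In spheroids Hes1 (chromosome 16, 30064384 to 30067796, mm10) had 99.0, 77.3, 98.2 and 92.2 CPM in KO, against 89.5, 91.3, 100 and 102 CPM in WT. Apart from KO 2 the values of both genotypes shared 1 range, and the 95% interval of the log2 fold change ran from -0.25 to 0.13 around -0.06. In crypts Hes1 had 17.1, 11.6, 10.7, 9.47, 10.7 and 11.0 CPM in KO, against 13.0, 11.2, 14.3, 14.6, 9.38 and 11.2 CPM in WT. KO 1 was the highest of the 12, the rest were mixed, and the log2 fold change was -0.06 ± 0.17, or 0.10 ± 0.22 without KO libraries 4, 5 and 6.

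**Figure D2:**
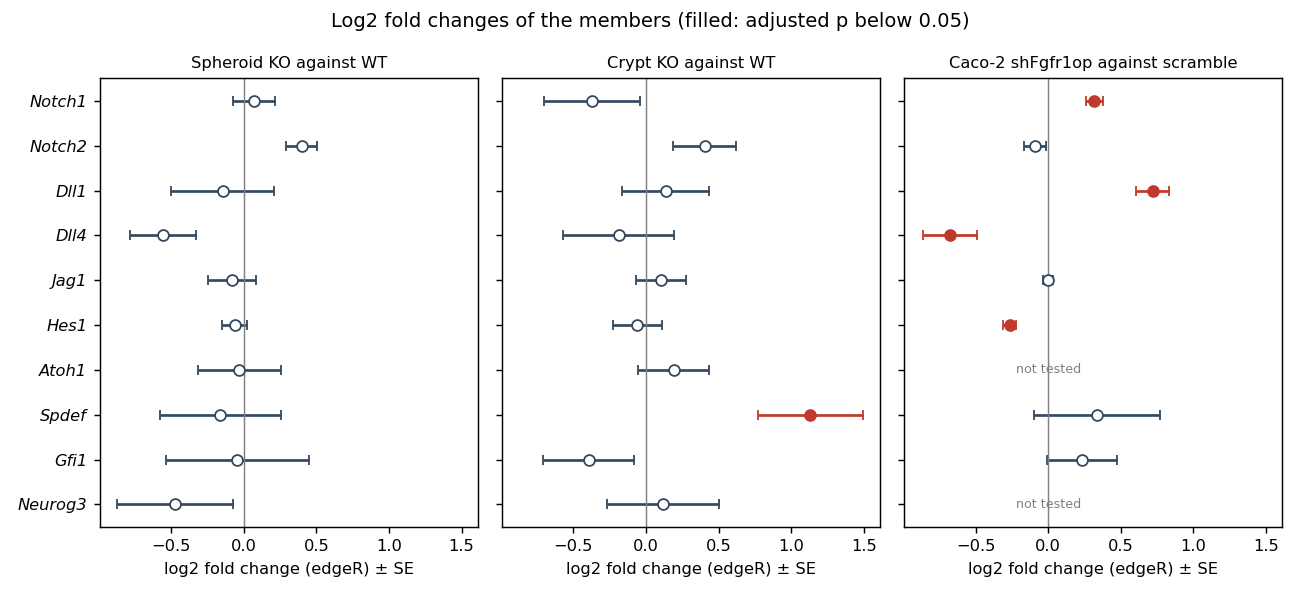
Log2 fold change of each of the 10 genes with its standard error, KO against WT in spheroids and crypts and shFgfr1op against scramble in Caco-2, filled where the edgeR adjusted p is below 0.05. Filled points are Spdef in crypts, at 1.13, and NOTCH1, DLL1, DLL4 and HES1 in Caco-2, from -0.68 to 0.72.

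Among the fate regulators, Spdef was the 1 gene that passed in mouse. It encodes an ETS-family factor that drives the maturation of goblet and Paneth cells, and Atoh1 encodes the basic helix-loop-helix factor that stands above it. Their promoters are shown because HES1 is known to repress Atoh1. Whether RBPJ or HES1 binds the letters marked here was not tested. They run from 250 bases before to 50 bases after the RefSeq start (GRCm38.p6) and are written 5′ to 3′ along the gene. Spdef is chr17:27728902-27729201 on the minus strand and Atoh1 is chr6:64728875-64729174 on the plus strand. Capitals mark TGGGAA, the core letters bound by RBPJ, in Spdef, and CTGGTG, which reads CACNAG, the N-box bound by HES1, on the other strand, in Atoh1.
Spdef: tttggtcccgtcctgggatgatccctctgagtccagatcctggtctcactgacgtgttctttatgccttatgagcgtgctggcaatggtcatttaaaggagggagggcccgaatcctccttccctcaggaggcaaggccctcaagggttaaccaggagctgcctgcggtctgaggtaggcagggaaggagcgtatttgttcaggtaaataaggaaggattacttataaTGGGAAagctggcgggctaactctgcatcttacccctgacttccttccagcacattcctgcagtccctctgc
Atoh1: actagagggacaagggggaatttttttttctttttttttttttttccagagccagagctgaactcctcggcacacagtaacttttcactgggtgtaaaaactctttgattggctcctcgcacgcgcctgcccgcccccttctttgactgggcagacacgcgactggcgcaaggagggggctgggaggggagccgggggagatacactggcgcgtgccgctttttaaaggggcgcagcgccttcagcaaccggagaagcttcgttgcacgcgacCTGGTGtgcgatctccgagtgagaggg
The Spdef match begins 22 bases before the start, at -22, and that of Atoh1 at 24, counting the start as 1. Both strands were searched for these motifs, and for CAGCTG, an E-box form bound by ATOH1, in the 9 of 10 members with a RefSeq promoter, Hes1 being the other. TGGGAA was in 1 of 9, Spdef, and in 25.6% of all 32851 mouse promoters. CACNAG was in 5 of 9, Atoh1, Dll1, Dll4, Notch1 and Notch2, and in 42.5% of all. CAGCTG was in 3 of 9, Dll1, Jag1 and Neurog3, and in 16.3% of all. No match of one motif overlapped a match of another in the 2 promoters shown.

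Spdef (chromosome 17, 27714352 to 27728955, mm10) had 12.8, 13.9, 9.03, 19.1, 33.5 and 27.9 CPM in KO crypts 1 to 6, against 5.74, 12.1, 11.4, 8.55, 3.39 and 11.8 CPM in WT crypts 1 to 6. KO 4, 5 and 6 were the 3 highest of the 12, KO 1 and 2 lay just above the highest WT library, and KO 3 lay inside the WT range. Spdef rose by 1.13 ± 0.36 on the log2 scale (SE; edgeR adjusted p 0.0360), with a mean of 19.4 ± 9.52 CPM in KO, against 8.83 ± 3.61 CPM in WT (SD, n = 6 each). Without KO libraries 4, 5 and 6 the log2 fold change was 0.43 ± 0.34, with an adjusted p of 0.472. The call was also lost with no filter on low counts (adjusted p 0.0799) and when KO 4, 5 or 6 or WT 1, 3, 4 or 5 was left out alone, with adjusted p of 0.0613, 0.0860, 0.0810, 0.0839, 0.0503, 0.0767 and 0.0691 in that order. In bulk preparations like these, a different number of cells of a type and a different amount of RNA per cell cannot be told apart.

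In spheroids Spdef was lower, at 1.07, 1.20, 4.16 and 3.08 CPM in KO, against 2.79, 1.82, 3.29 and 2.72 CPM in WT. The WT values lay above the 2 low KO values and, save for WT 3, below both high ones, and the log2 fold change was -0.16 ± 0.42. The KO effect in crypts minus that in spheroids was 1.24 ± 0.60 for Spdef on the log2 scale in a fit of all 20 mouse libraries, with an edgeR adjusted p of 0.248. In that fit 0 of 10 members passed by edgeR, 0 at an unadjusted p below 0.05, where 2.86% of all genes tested passed after adjustment (1.76% as higher and 1.1% as lower) and 20.6% before it. In Caco-2, SPDEF had 0.341, 0.581 and 0.859 CPM in shFgfr1op, against 0.429, 0.658 and 0.325 CPM in scramble cells, too few counts to separate the groups (log2 fold change 0.33 ± 0.43).

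Atoh1 (chromosome 6, 64729125 to 64731245, mm10), the switch for the whole secretory lineage, had 5.22, 2.68, 7.35 and 3.43 CPM in KO spheroids, against 5.69, 4.96, 4.75 and 3.72 CPM in WT spheroids. The KO libraries spread on both sides of the WT ones, with a log2 fold change of -0.03 ± 0.29. In crypts Atoh1 had 7.12, 5.41, 3.41, 3.92, 6.27 and 5.22 CPM in KO, against 3.54, 6.21, 4.91, 5.08, 2.36 and 5.33 CPM in WT. The groups overlapped from 3.41 to 6.21 CPM, with KO 1 and KO 5 above every WT library and WT 5 below every KO library. The 95% interval of the log2 fold change, 0.19, ran from -0.33 to 0.72. In Caco-2 ATOH1 had 2 counts, both in shFgfr1op library 2, and 0 counts in the other 5 libraries. A count of 0 allows up to 0.0787 CPM in shFgfr1op library 1, and 0.0804 CPM in scramble library 1, for counting error alone.

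Gfi1 (chromosome 5, 107716657 to 107726036, mm10), a zinc-finger repressor that keeps goblet and Paneth precursors from the endocrine fate, was the lowest of the 10 per kilobase in both kinds of mouse sample. It ran from 0.142 to 1.04 CPM in KO spheroids, with a median of 0.495, and in WT spheroids it had a median of 0.533 CPM and a lowest value of 0.364. In crypts it had a median of 0.880 CPM in KO, from 0.473 to 1.40, and of 1.22 CPM in WT, from 0.763 to 1.59. Its log2 fold changes were -0.05 ± 0.49 in spheroids and -0.39 ± 0.31 in crypts, and GFI1 had 0.23 ± 0.24 in Caco-2, none of which passed. Neurog3 (chromosome 10, 62133090 to 62134763, mm10), the factor that endocrine precursors need, had 0.758, 0.332, 0.833 and 0.779 CPM in KO spheroids, against 1.45, 0.418, 1.13 and 0.768 CPM in WT spheroids. Library 2 was the lowest in each genotype, and the log2 fold change was -0.47 ± 0.40. Crypt libraries ran from 1.07 to 2.31 CPM in KO and from 0.404 to 2.80 CPM in WT, with a log2 fold change of 0.12 ± 0.39. NEUROG3 had 2 counts in shFgfr1op cells and 2 counts in scramble cells, and like ATOH1 it was not tested.

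Several of the 10 genes had their extremes in the same library. Of the 10, 7 were lowest in KO 2 among KO spheroids, and 7 were lowest in WT 5 among WT crypts. KO 1 was the highest KO crypt library for 6 of the 10, and WT 2 the highest WT crypt library for 6. Exons of 6 of the 10 mouse genes, Notch1, Notch2, Dll1, Dll4, Gfi1 and Neurog3, overlap another annotated gene. The sources used here do not say whether counting used strand, so a part of their counts may belong to that neighbour.

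Other genes around Spdef in crypts moved in both directions. Of 27 tested secretory and endocrine factors outside the 10, 2 rose, 7 fell and 18 did not pass, against 14% higher and 10.5% lower of all genes. The list's median log2 fold change was -0.43 beside 0.05 over all genes, and without KO libraries 4, 5 and 6 it was -0.07 beside 0.03. The 2 that rose were forkhead factors of gut epithelium. Foxa1 had 7.72, 3.34, 3.46, 7.40, 9.86 and 7.85 CPM in KO crypts, against 2.78, 1.65, 1.49, 2.54, 1.95 and 2.76 CPM in WT crypts. All 6 KO values were above all 6 WT values, where 10.6% of all genes showed no overlap, and the log2 fold change was 1.59 ± 0.29 (edgeR adjusted p 0.00315), or 1.15 without KO libraries 4, 5 and 6 (0.0395). Foxa3 had 16.7, 19.8, 15.2, 22.5, 38.5 and 26.9 CPM in KO crypts, against 7.06, 15.1, 13.6, 9.12, 5.07 and 12.9 CPM in WT crypts. It too showed no overlap, by a narrow margin between KO 3 and WT 2, and rose by 1.15 ± 0.29 (edgeR adjusted p 0.0122), or 0.72 without those 3 libraries (0.152, not called).

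Of the 7 that fell, Creb3l4, which encodes a membrane-bound factor of the CREB3 family, had 15.6 to 30.5 CPM in KO crypts, against 36.7 to 60.1 CPM in WT crypts. Its log2 fold change was -1.01 ± 0.19 (edgeR adjusted p 0.00329), and -0.75 without KO libraries 4, 5 and 6 (0.0373). The endocrine factors Rfx6 and Isl1 had log2 fold changes of -1.24 ± 0.26 and -0.88 ± 0.24, and the tuft cell factor Pou2f3 one of -1.84 ± 0.50. Mlxipl, Cbfa2t2 and Gfi1b completed the 7. Without KO libraries 4, 5 and 6, 1 rose and 1 fell of 29 tested, Foxa1 and Creb3l4, where 5.46% of all genes passed, 2.72% as higher and 2.74% as lower.

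**Figure D3:**
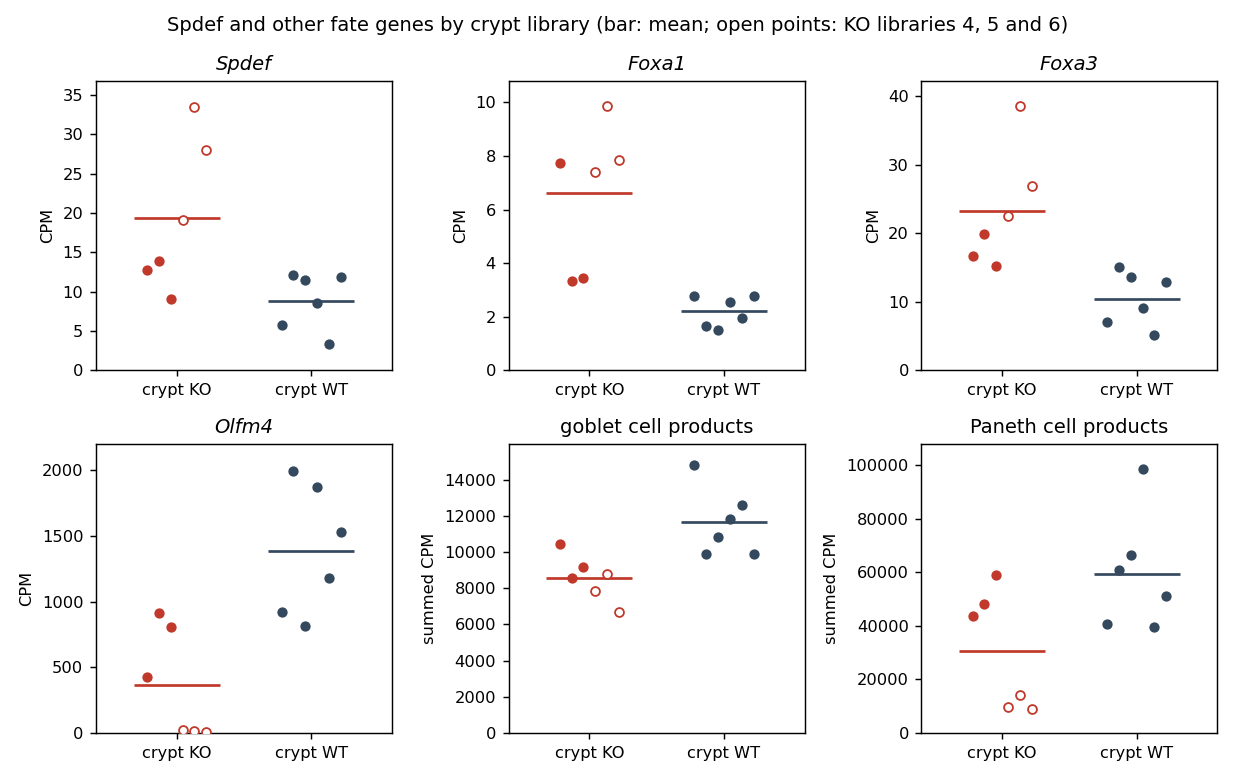
CPM of Spdef, Foxa1, Foxa3 and Olfm4 and the summed CPM of the goblet and Paneth cell product lists in each crypt library, KO in red and WT in dark blue, with the group mean as a bar and KO libraries 4, 5 and 6 as open points. The open points are the highest for Spdef and the lowest for Olfm4 and for Paneth cell products.

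No product of goblet or Paneth cells passed as higher in KO crypts. Of all genes tested in crypts by edgeR, 14% passed as higher, 10.5% passed as lower, and 38.1% had an unadjusted p below 0.05. DESeq2 called 25.8% of all genes with an adjusted p there. Of 13 goblet cell products tested in crypts 0 rose by edgeR, 1 fell, the chemokine gene Ccl6, and 12 did not pass. Of the 13, 6 had an unadjusted p below 0.05, and DESeq2 called 2, Zg16 and Ccl6, both lower. The summed level of goblet cell products was 6669 to 10421 CPM in KO crypts and 9882 to 14814 CPM in WT crypts. Without KO libraries 4, 5 and 6 Ccl6 alone passed of 14 tested (edgeR adjusted p 0.00546). Of 12 Paneth cell products 0 passed by edgeR, 4 had an unadjusted p below 0.05, and DESeq2 called 3, all lower. Their summed level was 8839 to 14314 CPM in KO libraries 4, 5 and 6, against 43595 to 58981 CPM in KO libraries 1, 2 and 3 and 39444 to 98493 CPM in WT. Without KO libraries 4, 5 and 6, 0 of 12 passed by edgeR and 1 had an unadjusted p below 0.05. Enteroendocrine products fell in 2 of 16 by edgeR, the prohormone convertase gene Pcsk1 and the serotonin synthesis gene Tph1. DESeq2 called 3, all lower, and the median log2 fold change over the list was -0.63. Without KO libraries 4, 5 and 6 that median was 0.01 and Pcsk1 alone passed, while Tph1 had -0.30 (edgeR adjusted p 0.375), and the call of Tph1 was lost in 8 of 12 fits with a library left out. Tuft cell genes fell in 6 of 8 by edgeR and in 7 by DESeq2. Without KO libraries 4, 5 and 6 they fell in 5 of 9 tested, where 2.74% of all genes passed as lower. Absorptive genes fell in 2 of 12 by edgeR, the sucrase gene Sis and the glucose transporter gene Slc5a1. DESeq2 called 5, all lower, and the median log2 fold change over the list was -1.09. Without those 3 libraries 0 of 12 fell by edgeR, and 3 had an unadjusted p below 0.05, against 23.1% of all genes.

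Markers of other tissues were present at low levels in these preparations. Leukocyte markers, 8 genes, summed to 18.1 to 60.0 CPM in KO crypts and 20.0 to 38.2 CPM in WT crypts. Stroma markers, 8 genes, summed to 1.29 to 52.4 CPM in KO, against 1.89 to 40.9 CPM in WT, and vessel markers, 8 genes, to 3.24 to 11.6 CPM in KO, against 4.29 to 7.79 CPM in WT. None of these markers passed by edgeR, 3 leukocyte markers had an unadjusted p below 0.05, and DESeq2 called 2 leukocyte markers. Over all genes in crypts these shares were 24.5%, 38.1% and 25.8%. Of the 6 epithelial markers, the keratin genes Krt8 and Krt18 rose by edgeR. DESeq2 called 3, Krt8 and Krt18 as higher and the villin gene Vil1 as lower. The summed level of the 6 was 10203 to 11548 CPM in KO libraries 4, 5 and 6 and 6539 to 6801 CPM in KO libraries 1, 2 and 3, against 4274 to 6558 CPM in WT. Krt8 was the most abundant of them, with a mean of 3428 CPM in KO libraries 1, 2 and 3, against 2302 CPM in WT. Vil1 had 1292 CPM in those KO libraries, against 1542 CPM in WT. Without KO libraries 4, 5 and 6 Krt18 passed (edgeR adjusted p 0.0161) and Krt8 did not (0.133). The part of such differences in make-up in the Spdef result was not tested.

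The rest of the Notch pathway was described by 4 lists: other receptors and ligands, genes that process or modify receptors and ligands, the transcription complex, and target genes. Over all genes in spheroids 0.232% passed by edgeR, 14.6% had an unadjusted p below 0.05, and DESeq2 called 3.7%. Of the 4 lists in KO spheroids 0 of 43 tested genes passed by edgeR, 5 had an unadjusted p below 0.05, and DESeq2 called 0. The smallest p was that of Hes6, a member of the Hes family found in secretory precursors, with 89.6 ± 4.09 CPM in KO, against 106 ± 8.26 CPM in WT (SD, n = 4 each; log2 fold change -0.24 ± 0.070, edgeR adjusted p 0.180). The ligand genes Dlk2 and Jag2 had log2 fold changes of -0.81 ± 0.31 and -0.20 ± 0.076. Of 22 secretory and endocrine factors in spheroids 0 passed, 5 had an unadjusted p below 0.05, and DESeq2 called 2, beside the same shares over all genes. Sox4, an HMG-box factor, came closest, with 254 ± 21.4 CPM in KO, against 172 ± 23.2 CPM in WT (0.56 ± 0.10, edgeR adjusted p 0.0749). Foxa3, higher in KO crypts, had 52.2, 48.5, 60.5 and 66.1 CPM in KO spheroids, against 42.1, 43.4, 47.5 and 47.7 CPM in WT spheroids. The groups did not overlap, as in 3 of the 22 factors and in 8.56% of all genes tested in spheroids. The log2 fold change of Foxa3, 0.33 ± 0.098, did not pass (edgeR adjusted p 0.180).

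In KO crypts 5 of 41 tested Notch pathway genes rose, 2 fell and 34 did not pass, which is 17.1% called against 24.5% of all genes. Those that rose were mostly expressed at a few CPM. Neurl1a, which encodes a ubiquitin ligase of the Neuralized family that acts on ligands in flies, had 0.471, 0.315, 0.381, 2.27, 3.18 and 3.11 CPM in KO, against 0.178, 0.264, 0.311, 0.426, 0.538 and 0.210 CPM in WT. The rise lay in KO libraries 4, 5 and 6: with them its log2 fold change was 2.35 ± 0.62 (edgeR adjusted p 0.0158) and without them 0.30 (0.724). Dtx2, of the Deltex family, rose by 1.11 ± 0.33. Furin, the protease that cuts the Notch precursor, rose by 0.57 ± 0.19 and Mfng, a Fringe glycosyltransferase, by 0.92 ± 0.31. The call of Furin was lost in 10 of 12 fits with a library left out, that of Mfng in 9 and that of Dtx2 in 3.

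Both genes that fell encode proteins that limit Notch signalling. Numb had 52.3 ± 5.34 CPM in KO, against 74.1 ± 14.8 CPM in WT crypts (log2 fold change -0.50 ± 0.14, edgeR adjusted p 0.0182), and the ubiquitin ligase gene Itch had 54.8 ± 3.00 CPM in KO, against 77.9 ± 13.9 CPM in WT (-0.51 ± 0.13, 0.0123; SD, n = 6 each). All 6 KO values of Itch lay below all 6 WT values, where 10.6% of all genes tested in crypts showed no overlap. Without KO libraries 4, 5 and 6 their log2 fold changes were -0.47 and -0.51, with edgeR adjusted p of 0.150 and 0.100. Over the 4 lists 0 of 42 tested genes then passed by edgeR, and 13 had an unadjusted p below 0.05, where 23.1% of all genes met it.

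Of the target genes in crypts 0 of 5 passed by edgeR, 1 had an unadjusted p below 0.05, and DESeq2 called 1. Over all genes in crypts these shares were 24.5%, 38.1% and 25.8%. Olfm4, a stem cell gene that responds to Notch, was the most abundant of the target genes and the most variable. It had 428, 914, 808, 22.4, 17.0 and 8.37 CPM in KO crypts 1 to 6, against 922, 1998, 817, 1876, 1176 and 1532 CPM in WT crypts 1 to 6. KO 4, 5 and 6 were far below all others, KO 1 and 3 were also below every WT library, and the log2 fold change of -1.92 ± 1.00 did not pass (edgeR adjusted p 0.179). Without those 3 libraries it was -0.95 (0.0960). Heyl, another target of the Hes and Hey family, had -0.87 ± 0.34 (0.0735).

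**Figure D4:**
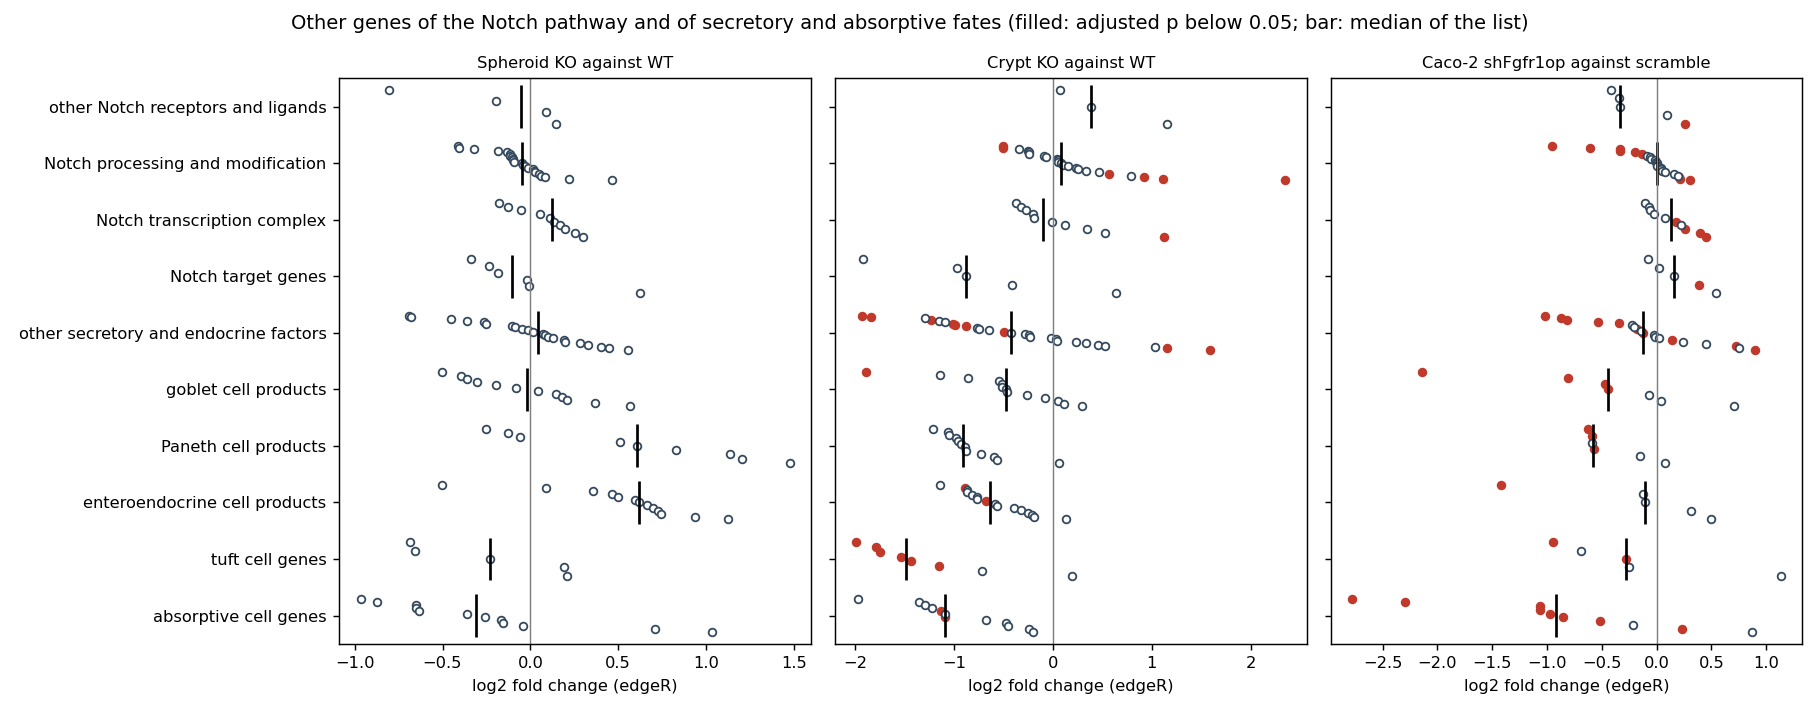
Log2 fold changes of the tested genes of each list in the 3 comparisons, 1 point per gene, filled where the edgeR adjusted p is below 0.05, with the median of the list as a bar and a separate scale in each panel. No point is filled in spheroids; in crypts the medians of the 5 lists of cell products and genes lie from -1.49 to -0.47, and in Caco-2 that of absorptive genes at -0.91.

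In shFgfr1op cells 9 of 43 Notch pathway genes rose, 6 fell and 28 did not pass, which is 34.9% called against 31.9% of all genes. NOTCH3, a further receptor, had 211 ± 4.20 CPM in shFgfr1op, against 177 ± 5.48 CPM in scramble cells, a rise of 0.26 ± 0.034 on the log2 scale (SD, n = 3 each; edgeR adjusted p 2.94e-08). In the transcription complex 4 of 10 rose and 0 fell, where 15.7% of all genes rose and 16.2% fell. MAML2 rose by 0.39 ± 0.062, and the acetyltransferase genes CREBBP by 0.25 ± 0.041 and KAT2B by 0.45 ± 0.12. RBPJ, the DNA-binding partner of Notch, rose by 0.18 ± 0.055. The call of RBPJ was lost without shFgfr1op 1 or without scramble 1 or 3. Among target genes 1 of 5 rose, HEYL, by 0.38 ± 0.090 (edgeR adjusted p 0.000681). HEYL was thus higher while HES1, given above, was lower.

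Genes that process or modify Notch moved in both directions, with 3 higher and 6 lower of 23. That is 39.1% called, against 31.9% of all genes, 15.7% as higher and 16.2% as lower. NUMB, which limits Notch, was higher, with 88.4 ± 1.10 CPM in shFgfr1op, against 71.7 ± 0.31 CPM in scramble cells (0.30 ± 0.041), and its relative NUMBL was lower (-0.33 ± 0.057). In KO crypts, in contrast, Numb was lower, as given above; the difference between the species was not tested. Of the 3 Fringe enzymes, which add sugars to the receptors and alter their choice of ligand, LFNG fell by 0.61 ± 0.12 and MFNG by 0.95 ± 0.21, while RFNG rose by 0.21 ± 0.065. The call of RFNG was lost without shFgfr1op 3 or scramble 3. POFUT1, which adds the fucose on which Fringe acts, fell by 0.20 ± 0.033, DTX4 by 0.33 ± 0.033 and ITCH by 0.13 ± 0.035, and MIB2, a ubiquitin ligase of ligands, rose by 0.21 ± 0.052.

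**Figure D5:**
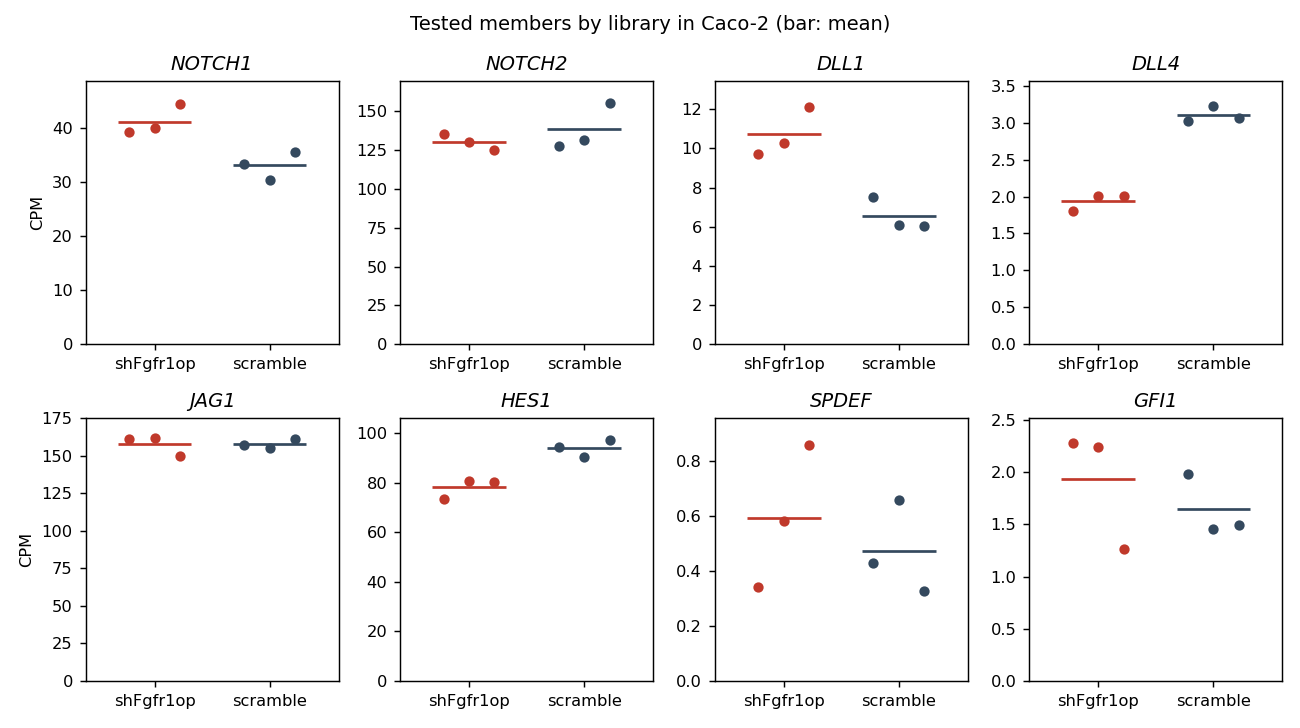
CPM of the 8 tested genes in each Caco-2 library, shFgfr1op in red and scramble in dark blue, with the group mean as a bar and each axis starting at 0. The groups are apart for NOTCH1, DLL1, DLL4 and HES1 and overlap for NOTCH2, JAG1, SPDEF and GFI1.

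With ATOH1 near 0 in Caco-2, secretory factors and products were still partly detected. Of all genes tested in this line 15.7% passed as higher and 16.2% as lower, the shares to set beside each list here. Of 19 tested secretory and endocrine factors 3 rose, 7 fell and 9 did not pass. CREB3L1, a membrane-bound factor of secretory cells, had 12.5 ± 1.83 CPM in shFgfr1op, against 22.8 ± 0.80 CPM in scramble cells (SD, n = 3 each), a fall of 0.87 ± 0.083 on the log2 scale (edgeR adjusted p 1.13e-11). XBP1 and BHLHA15, which build the secretory apparatus, fell by 0.34 ± 0.035 and 0.53 ± 0.11, and the corepressor genes CBFA2T3 and RCOR2 rose by 0.89 ± 0.20 and 0.72 ± 0.17. Goblet cell products fell in 4 of 7 and rose in 0, led by ZG16 with 3.67 ± 0.27 CPM in shFgfr1op, against 16.3 ± 1.26 CPM in scramble cells, and AGR2 with 86.7 ± 5.37 CPM in shFgfr1op, against 152 ± 1.70 CPM in scramble cells. The calls of GUCA2A and TFF3, the other 2, were lost by DESeq2 and in 3 and 5 of 6 fits with a library left out. Paneth cell products fell in 3 of 6, LYZ, NUPR1 and ANG, and absorptive genes fell in 7 of 10 and rose in 1.

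To place Atoh1 and Hes1 among other genes, their levels over the 12 crypt libraries were correlated with those of 9690 genes of at least moderate level. The correlations are descriptive, since the libraries share 2 genotypes and differ in depth. Atoh1 was most like Usp21 (Pearson r 0.89, Spearman rho 0.93), Rfx3 (0.88 and 0.78), Sdsl (0.87 and 0.78) and Nectin1 (0.87 and 0.82). Without the 2 libraries farthest from the median the Pearson r of these 4 was 0.80, 0.87, 0.74 and 0.82, and without KO libraries 4, 5 and 6 it was 0.92, 0.95, 0.88 and 0.91. Hes1 was most like Ubr2 (Pearson r 0.89, Spearman rho 0.78), Erbb2 (0.88 and 0.76), Ptms (0.87 and 0.76) and Itsn1 (0.87 and 0.76). Without the 2 farthest libraries these r were 0.75, 0.81, 0.80 and 0.76, and without KO libraries 4, 5 and 6 they were 0.94, 0.85, 0.89 and 0.88.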

How the data were processed

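RNA was measured by sequencing in 20 mouse and 6 human (Caco-2) libraries. The authors deposited whole-number read counts per gene, as 1 table for spheroids, 1 for crypts and 1 for Caco-2. The tools named in the submitters' processing notes are STAR and DESeq2, and the build is mm10. The labels name mouse and mm10 for Caco-2 too, but its table holds human Ensembl identifiers, so no human coordinates are given. The sources used here do not say whether counting used strand. Repeated identifiers (276 mouse, 116 human) were dropped, and 40254 of 40481 mouse identifiers were found in GENCODE M21. No 2 replicates agreed within sampling noise (chi-square per degree of freedom at least 3.98).

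Each table was fitted alone with edgeR 4.0.16 (R 4.3.3): filterByExpr, TMM, robust quasi-likelihood F test, Benjamini-Hochberg adjustment over all genes tested, called below 0.05. The standard error is the log2 fold change divided by the square root of F. CPM uses TMM-scaled totals. The crypt and spheroid effects were compared by an interaction over the mouse libraries. Alternatives were RLE size factors, no filter, at least 1 CPM, DESeq2 1.42.0, each library left out and, where labels number replicates, a replicate block; the fit without crypt KO libraries 4, 5 and 6 was added after seeing the data. Caco-2 samples are not labelled as separate cultures, so their p-values measure only the spread between these samples. Intervals cover counting error and library spread as fitted, and the floor for a count of 0 is 3 counts.

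The members and gene lists were chosen with earlier results of these data known. Named list genes are those with the smallest p in a list, or all called where 5 or fewer, with some others chosen after their values were seen (Neurl1a, Dtx2, Furin and Mfng per library or in full, Foxa3 in spheroids, Olfm4). Components and likeness use log2 CPM (prior count 2), and likeness a mean log2 CPM of at least 2. One gene counted in a list is not reported here by name. The edgeR step was tested on simulated data.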

Additional observations from a re-analysis of the deposited data

Results flagged for a closer look

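Within groups, 3 values of the 10 genes lay far from the rest of their group by Dixon's ratio, a test that chance alone passes in about 1 group in 20. Each of the 10 genes was tested in each spheroid and crypt group, so chance alone can give some such values. Neurog3 in KO spheroid library 2 was at 0.332 CPM, where the next lowest KO library had 0.758 CPM. In crypt KO library 1, Dll1 was at 12.6 CPM, where the next highest KO library had 6.90 CPM, and Hes1 was at 17.1 CPM, where the next highest had 11.6 CPM. The same library had the lowest Fgfr1op of the 12 crypt libraries, at 11.7 CPM, and a link between these values was not tested.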

How the results depend on the processing

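The count of genes called in spheroids, 37 over the whole table, was 154 with no filter on low counts, 566 with DESeq2 and from 3 to 160 with 1 library left out, and each of the 8 libraries moved it by more than 1.5 times. DESeq2 called 1 of the 10 members there, Notch2, and every other alternative called 0. In crypts, leaving out KO libraries 4, 5 and 6 gave 924 genes called in place of 4014, and 0 members; 0 members were also called with no filter, and 0 to 1 with a library left out. In Caco-2 all 4 member calls stayed in all 11 alternatives. The labels do not say what a replicate number shares. The correlation of same-numbered deviations ran from -0.0295 to 0.0982 in spheroids, where that of differently numbered ones ran from -0.242 to 0.304. In Caco-2 the same-numbered ones ran from 0.00332 to 0.0437. With so few libraries these values cannot decide whether the numbers pair the samples. With a replicate block 71 genes were called in spheroids, with 0 members, and 5904 in Caco-2, with 4 members. The column names of the crypt table give no replicate number that the labels share, so no block was fitted there. Of the list calls, 18 to 26 of 27 in crypts and 35 to 40 of 43 in Caco-2 held with a library left out. The number of list calls in crypts itself was 45 without KO library 3, 41 with DESeq2 and 19 to 34 with any other library left out.

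Signs turned only for values that did not pass. Without crypt KO libraries 4, 5 and 6 the log2 fold change in crypts was 0.20 for Dll4 and 0.10 for Hes1, and the crypt minus spheroid difference of Hes1 was 0.11. JAG1 in Caco-2 was at 0.0024 with RLE size factors and 0.0024 with DESeq2. With a library left out, spheroid values ran from -0.10 to 0.17 for Notch1, -0.39 to 0.12 for Dll1, -0.19 to 0.031 for Jag1, -0.10 to 0.011 for Hes1, -0.34 to 0.16 for Atoh1, -0.58 to 0.083 for Spdef and -0.58 to 0.28 for Gfi1. Crypt values ran from -0.13 to 0.26 for Dll1, -0.020 to 0.18 for Jag1 and -0.11 to 0.41 for Neurog3. Caco-2 values ran from -0.14 to 0.0034 for NOTCH2, -0.018 to 0.038 for JAG1 and -0.035 to 0.67 for SPDEF. The crypt minus spheroid difference ran from -0.17 to 0.089 for Notch2, -0.086 to 0.47 for Dll1, -0.036 to 0.25 for Jag1, -0.23 to 0.0087 for Hes1, -0.012 to 0.48 for Atoh1 and -0.70 to 0.14 for Gfi1. The cause was not tested. Depth limits the low genes: ATOH1, NEUROG3 and SPDEF in Caco-2 and Gfi1 in spheroids rest on 0 to 130 counts per group.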
